A study of Mus musculus with 4 samples.

Results

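Platelets are shed by megakaryocytes, which share a progenitor with red cells and use many of the same transcription factors. The genes described here make the products by which platelets and megakaryocytes are known, namely granule chemokines, the glycoproteins of the surface complex that binds von Willebrand factor, the collagen receptor, and the granule and activation proteins beside them. They were chosen by function, with earlier results of these data known, as a list of 10 gene symbols (Pf4, Ppbp, Gp1ba, Gp1bb, Gp5, Gp9, Gp6, Vwf, Treml1 and Clec1b). The symbols were looked up in the gene table of the array. Of these, 7 had a probe set that the table pairs with that gene alone, among 19938 genes measured in this way. Gp1bb shares its probe set with the neighboring gene Septin5 and is given separately below, and Gp1ba and Gp6 were not matched to a probe set and were not analysed here. Each of the 7 genes had 1 probe set.

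RNA was compared between proliferating cultures of 2 kinds of mouse erythroid cells, each measured on 2 arrays, A and B, from duplicate cultures. MEL cells are a murine erythroleukemia line, here a single clone that stably carries Gata-1 fused to ER, the ligand-binding part of the estrogen receptor, and they grew in DMEM with FBS, L-glutamine and puromycin. ES-EP are erythroid progenitors that were grown out of embryonic stem cells and are not transformed. They lack the fusion and grew in StemPro34 with Epogen, hIGF-1, dexamethasone, murine SCF and mercaptoethanol. Cell type, transgene and medium changed together and cannot be told apart. Each p-value reflects only the spread between duplicate cultures, with the error of each gene drawn in part from all genes.

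Signals are log2 values, and a difference is the MEL mean minus the ES-EP mean. A gene is said to be called where its adjusted p was under 0.05 (limma, Benjamini-Hochberg over all 19938 genes). Because the array reports a signal for every gene, the 95th percentile of 1015 olfactory receptor genes, receptors of nasal sensory neurons, was taken as the level under which a signal cannot be told from background. This olfactory level was 5.20 in MEL and 5.57 in ES-EP. Of the olfactory receptor genes themselves, 498 were called, 40 higher and 458 lower in MEL. A call of a gene under this level is therefore not by itself a sign of a difference in RNA. The median difference of all genes was -0.15, and it came to -0.03, -0.01 and -0.00 after quantile normalization, median centring and cyclic loess. Of 9 measured erythroid markers, 8 lay above the olfactory level in MEL and 9 in ES-EP. The erythroid markers also differed between the cell types, as 8 of the 9 were called lower in MEL, 4 of them at least 2-fold (median -0.79, mean signals 8.99 and 8.93 in the MEL arrays and 10.84 and 10.90 in the ES-EP arrays). The widest difference was that of Slc4a1, the anion exchanger of the red cell membrane, at -5.47. Of 10 mast cell markers, 7 were called lower and 1 higher in MEL (mean signals 5.38 and 5.32 in the MEL arrays and 6.55 and 6.53 in the ES-EP arrays). Of these 10, 6 lay under the olfactory level in both cell types, and 2 were called and at least 2-fold lower. These were Ms4a2, the beta chain of the IgE receptor (3.95 in MEL, 11.05 in ES-EP), and Hdc (7.31 in MEL, 9.28 in ES-EP). Of all genes, 43.2% were called lower and 20.5% higher in MEL. The part of either list in the results was not tested. Marker genes are named as examples after their values were seen.

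Platelet factor 4, the chemokine that fills megakaryocyte alpha granules, separated the cell types far more than any other gene of the list. Pf4 was well above background in MEL and at background in ES-EP. Treml1 and Gp5 were measurable in both and higher in MEL, and Gp9 was slightly higher in MEL. Vwf and Clec1b were slightly lower, calls that ended after rescaling, and Clec1b lay under the olfactory level in every array. Of the 7 genes, 5 were called higher in MEL and 2 lower, where 20.5% of all genes were called higher, 43.2% lower and 63.8% in either direction. Rescaling moved the balance over all genes, which stood at 4096 higher and 8622 lower as deposited, to 5342 and 5975 (quantile), 5757 and 5644 (median centring) and 5676 and 5460 (cyclic loess). Those both called and at least 2-fold higher numbered 3 (Pf4, Treml1 and Ppbp), against 5.72% of all genes. Of these, Ppbp lay under the olfactory level in every array, so that its fold is not a measure of size. None of the 7 was 2-fold lower, against 4.27% of all genes. The median difference of the 7 was 0.87.

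**Figure D1:**
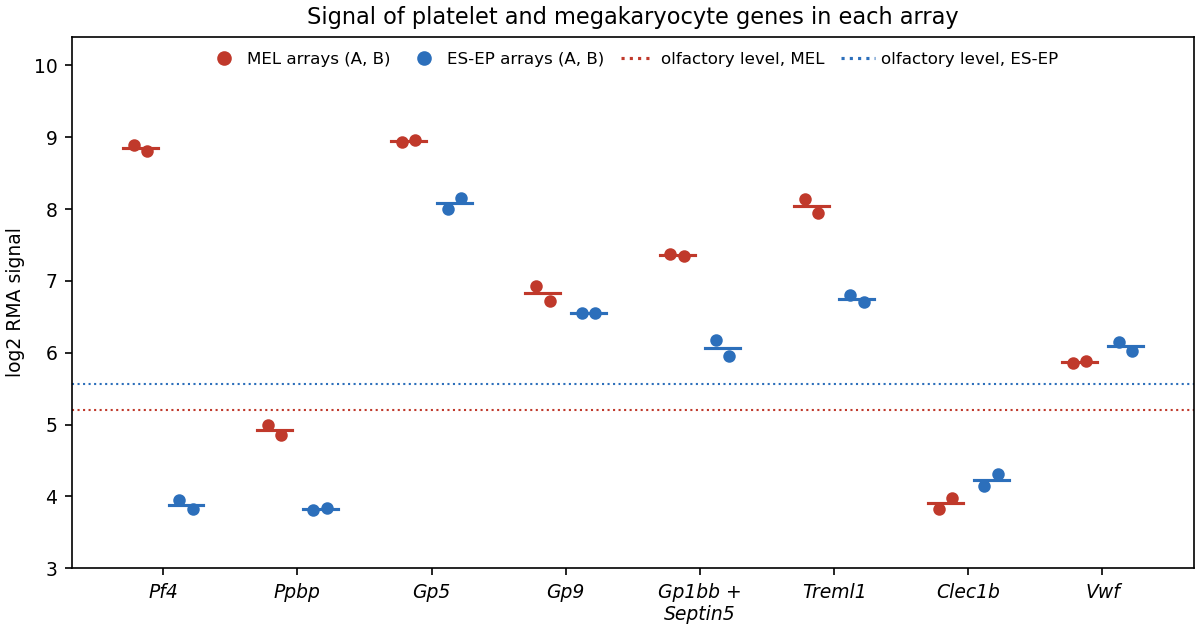
Log2 RMA signal (y axis) of the 7 genes with a probe set of their own and of the probe set shared by Gp1bb and Septin5. Each point is 1 array and each bar the mean of 2, with MEL in red on the left and ES-EP in blue on the right of each pair, and dotted lines mark the olfactory level of 5.20 in MEL and 5.57 in ES-EP. Pf4 averaged 8.85 in MEL and 3.89 in ES-EP, and the arrays of the cell types did not overlap for any of the 7 genes, as for 81.8% of all genes.

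The granule chemokines were compared first. Pf4 and Ppbp encode platelet factor 4 and pro-platelet basic protein, which are stored in alpha granules and released when platelets are activated. They lie next to each other on chromosome 5, in the same orientation, in a cluster of CXC chemokine genes. Pf4 (probe set 10523134) had signals of 8.89 and 8.81 in MEL arrays A and B, against 3.95 and 3.82 in ES-EP arrays A and B. Both MEL arrays lay far above the olfactory level and both ES-EP arrays far below it. The difference of 4.96 ± 0.09 (SE, n = 2 arrays per cell type, limma adjusted p = 1.81e-11) corresponds to 31.2-fold, a size that rests on background because the ES-EP signal lay under the olfactory level. It ranked number 17 from the highest among all 19938 differences. In a culture, fewer cells that make a transcript and less of it per cell cannot be told apart.

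Ppbp (probe set 10523128), although adjacent to Pf4, stayed under the olfactory level in every array. Its signals were 5.00 and 4.85 in MEL, against 3.81 and 3.84 in ES-EP. The arrays did not overlap, as was so for 81.8% of all genes, and the difference of 1.10 ± 0.08 was called (SE, n = 2 arrays per cell type, limma adjusted p = 1.39e-06). No olfactory receptor gene had a difference as high, their highest being 0.79. As both means lay in the range of background, the nominal fold of 2.14 is not a measure of its size.

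The sequences at these starts are shown because the genes are neighbors with very different signals in MEL. They run from 250 bases before to 50 bases after the transcription start, from the RefSeq promoter table (build GRCm38.p6), and capitals mark the letters searched for on both strands, AGATAA (bound by GATA factors) and GAGGAA and CAGGAA (ETS factors such as PU.1 and Fli1, differing in the first letter). A match on the opposite strand appears as its reverse complement. The Pf4 window is chr5:90772185-90772484 and the Ppbp window chr5:90768268-90768567, both on the plus strand.
Pf4: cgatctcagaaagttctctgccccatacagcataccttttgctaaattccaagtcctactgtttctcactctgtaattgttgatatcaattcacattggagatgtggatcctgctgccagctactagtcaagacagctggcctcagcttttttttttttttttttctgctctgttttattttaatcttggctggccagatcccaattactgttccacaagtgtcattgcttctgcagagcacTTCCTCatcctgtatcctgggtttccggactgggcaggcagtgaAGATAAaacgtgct
Ppbp: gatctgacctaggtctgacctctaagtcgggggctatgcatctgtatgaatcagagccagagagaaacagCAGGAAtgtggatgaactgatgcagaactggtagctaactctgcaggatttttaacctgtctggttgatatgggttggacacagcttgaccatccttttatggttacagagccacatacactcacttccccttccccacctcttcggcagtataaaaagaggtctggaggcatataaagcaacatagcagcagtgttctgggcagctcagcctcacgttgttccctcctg
In Pf4 the letters GAGGAA matched on the opposite strand, beginning 8 bases before the start, and AGATAA matched on the gene's strand at base 37 after it. In Ppbp the only match was CAGGAA, 180 bases before the start. Over all 32851 promoters of the table, 11.2% held AGATAA, 28.3% GAGGAA and 30.6% CAGGAA. Positions give the first base of a match as printed, and a match describes letters only.

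The other CXC chemokine genes compared had much smaller differences than Pf4. In gene order, the measured neighbors are Cxcl5, Ppbp, Pf4, Cxcl3, Cxcl15 and Cxcl1. Cxcl5 had a mean signal of 4.46 in MEL and 4.52 in ES-EP, and Cxcl3 4.92 in MEL and 4.97 in ES-EP, with differences of -0.05 for each (limma adjusted p = 0.657 and 0.622). A list of 9 CXC chemokine genes also held genes outside this run of neighbors, Cxcl9 and Cxcl10 among them. Of the 9, 7 lay under the olfactory level in both cell types. In MEL, 1 was called higher and 5 lower, where 20.5% of all genes were called higher and 43.2% lower. The lower calls numbered 1 or 2 after rescaling. The gene called higher was Cxcl10, an interferon-induced chemokine (5.53 in MEL, 4.67 in ES-EP, difference 0.87). Differences of Cxcl9, Cxcl15 and Cxcl2 were -0.67, -0.38 and -0.28, each with both means under the olfactory level. Macrophages are another source of Pf4. Of 10 macrophage and granulocyte markers, 2 lay above the olfactory level in MEL and 2 in ES-EP. Their mean signal was 5.02 and 4.98 in the MEL arrays and 4.98 and 5.00 in the ES-EP arrays. The members went both ways, with 1 called higher and 3 lower in MEL, where 20.5% of all genes were called higher and 43.2% lower. Fcgr1, an Fc receptor of macrophages, was higher in MEL together with Pf4 (7.03 in MEL, 4.97 in ES-EP, difference 2.06 ± 0.08, SE, limma adjusted p = 5.41e-09), the ES-EP mean at background. Csf1r, the receptor that macrophages need to grow, was under the olfactory level in MEL and just above it in ES-EP (4.71 in MEL, 5.61 in ES-EP). Adgre1, Itgam and Lyz2 were under it in both, and Cd68 was above it in both (7.17 in MEL, 7.09 in ES-EP). The part of such cells or genes in the Pf4 difference was not tested.

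**Figure D2:**
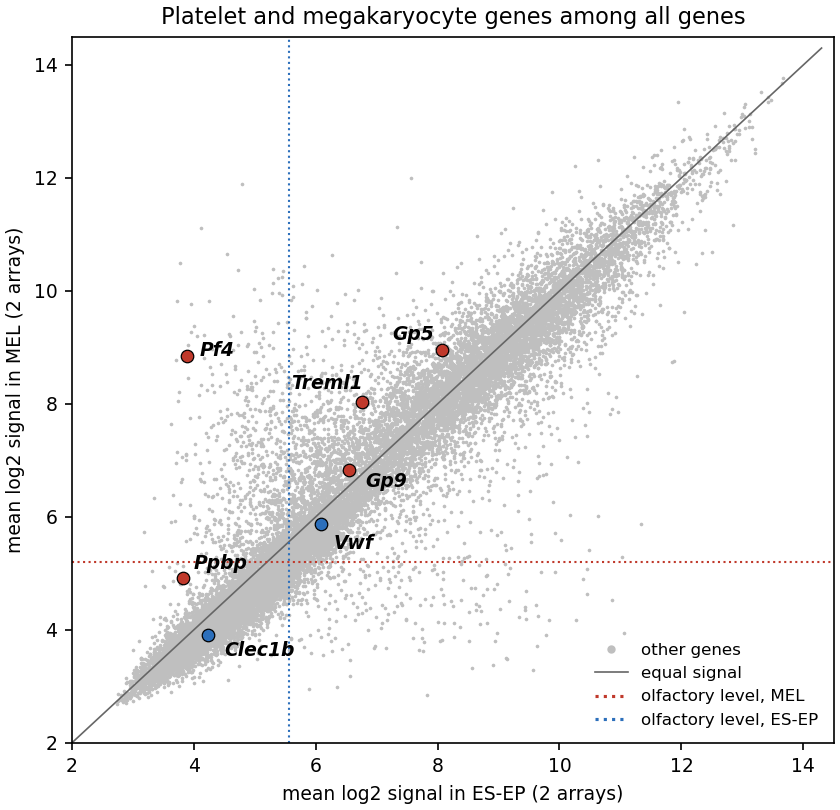
Mean log2 signal over 2 arrays in ES-EP (x axis) and in MEL (y axis) for 19938 genes (gray), with the 7 platelet and megakaryocyte genes named, in red where higher and blue where lower in MEL. The line marks equal signal and the dotted lines the olfactory level of each cell type. Pf4 stands at 8.85 in MEL and 3.89 in ES-EP, while Ppbp (4.92 in MEL, 3.82 in ES-EP) and Clec1b (3.91 in MEL, 4.23 in ES-EP) lie below both dotted lines.

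The next question was whether genes of the platelet glycoprotein complex moved together. Gp1ba, Gp1bb, Gp9 and Gp5 encode the subunits of the GPIb-IX-V complex, leucine-rich repeat proteins through which platelets attach to von Willebrand factor on a damaged vessel wall. Gp5 (probe set 10438907) had signals of 8.94 and 8.96 in MEL, against 8.0 and 8.16 in ES-EP. All 4 arrays lay well above the olfactory level, so that both kinds of erythroid cell gave a measurable signal. The difference was 0.87 ± 0.09 (SE, n = 2 arrays per cell type, limma adjusted p = 9.47e-06), or 1.83-fold higher in MEL, and it was 1.03 relative to the median of all genes.

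Gp9 (probe set 10539818) differed much less. Its signals were 6.93 and 6.72 in MEL, against 6.55 in both ES-EP arrays, all above the olfactory level. The MEL arrays differed from each other by more than the lower of them did from ES-EP. The difference of 0.28 ± 0.09 passed narrowly (SE, n = 2 arrays per cell type, limma adjusted p = 0.0209), and 25 of 1015 olfactory receptor genes had a higher one. Without MEL replicate A the difference was 0.17 and the call ended (adjusted p = 0.183), as it did without ES-EP replicate A (0.0656) or ES-EP replicate B (0.0702).

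The probe set shared by Gp1bb and Septin5 (10438358) was brighter in MEL. Septin5 encodes a cytoskeletal septin found in platelets. The probe set read 7.38 and 7.35 in MEL, against 6.18 and 5.96 in ES-EP. The difference was 1.30 ± 0.10, or 2.45-fold (SE, n = 2 arrays per cell type, limma adjusted p = 0.00113 over 35557 probe sets, of which 14.4% were called higher in MEL). Which of the genes gave the signal cannot be told apart.

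The starts of Gp5 and Gp9 are shown as the subunits measured alone. The start used for Gp9 is that of the table and lies inside the annotated gene. The Gp5 window is chr16:30310732-30311031 on the minus strand and the Gp9 window chr6:87777820-87778119 on the plus strand (GRCm38.p6, written along the gene, with capitals as above).
Gp5: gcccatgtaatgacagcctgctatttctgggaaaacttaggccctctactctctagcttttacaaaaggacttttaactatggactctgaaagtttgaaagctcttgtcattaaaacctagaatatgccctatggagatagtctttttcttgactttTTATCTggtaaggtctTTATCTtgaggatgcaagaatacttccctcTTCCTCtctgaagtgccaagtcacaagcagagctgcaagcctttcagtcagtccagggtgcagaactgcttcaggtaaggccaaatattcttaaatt
Gp9: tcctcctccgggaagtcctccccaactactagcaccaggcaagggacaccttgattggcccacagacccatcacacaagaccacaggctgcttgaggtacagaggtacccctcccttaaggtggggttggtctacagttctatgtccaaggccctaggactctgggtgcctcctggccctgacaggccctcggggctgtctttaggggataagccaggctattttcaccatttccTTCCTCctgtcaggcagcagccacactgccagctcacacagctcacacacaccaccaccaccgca
Gp5 held AGATAA on the opposite strand at 93 and at 77 bases before the start and GAGGAA on that strand at 47 bases. Gp9 held GAGGAA on the opposite strand at 15 bases and no AGATAA. A promoter was in the table for 9 of the 10 genes, and AGATAA was found in 4 (Pf4, Gp5, Gp6 and Clec1b), GAGGAA in 4 (Pf4, Gp5, Gp9 and Gp1ba) and CAGGAA in 3 (Ppbp, Treml1 and Gp1ba). Clec1b, which lay under the olfactory level in every array, was thus among those with AGATAA.

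Treml1 and Clec1b encode activating or signaling receptors of the platelet surface. Treml1, or TLT-1, is stored in alpha granules and reaches the surface on activation. Treml1 (probe set 10445789) had signals of 8.14 and 7.94 in MEL, against 6.80 and 6.71 in ES-EP. All arrays lay above the olfactory level and the groups were well apart. The difference was 1.28 ± 0.09 (SE, n = 2 arrays per cell type, limma adjusted p = 7.98e-07), or 2.43-fold higher in MEL. It was the only one of the 7 genes that was at least 2-fold apart with a signal above background in both cell types.

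The relatives of Treml1 in the TREM family, several of which lie beside it on chromosome 17, did not follow it. Of 7 genes of this family and its adaptors, 1 (the adaptor Tyrobp) was called higher and 4 lower in MEL. Of all genes, 20.5% were called higher and 43.2% lower. Of the 7, 3 lay under the olfactory level in both cell types. Trem2, the nearest measured neighbor on one side and a receptor of macrophages, averaged 6.02 in MEL and 6.64 in ES-EP (difference -0.62 ± 0.08, SE, limma adjusted p = 6.66e-05). Nfya, the nearest on the other side, a subunit of a CCAAT-binding factor, averaged 9.75 in MEL and 9.81 in ES-EP (difference -0.06, adjusted p = 0.568). Tyrobp, the adaptor DAP12 through which several TREM receptors signal, was 1.93-fold higher in MEL (5.97 in MEL, 5.02 in ES-EP, the ES-EP mean under the olfactory level). Treml4 was 1.81-fold lower in MEL, where it lay below that level (5.02 and 5.07 in MEL, against 6.05 and 5.75 in ES-EP). Hcst, another adaptor, lay below it in both (difference -0.86).

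Clec1b encodes the C-type lectin receptor of platelets for podoplanin. Its probe set (10542172) gave 3.83 and 3.98 in MEL, against 4.15 and 4.31 in ES-EP, all under the olfactory level. The difference of -0.32 ± 0.09 was called in the deposited values (SE, n = 2 arrays per cell type, limma adjusted p = 0.0112) but not after quantile normalization, median centring or cyclic loess (adjusted p = 0.246, 0.126 and 0.208). It also ended without ES-EP replicate B (-0.24, adjusted p = 0.0800) or MEL replicate A (-0.25, 0.112). Relative to the median of all genes it was -0.17, and 324 of the 1015 olfactory receptor genes had a lower difference. In a list of 14 genes, C-type lectin relatives and podoplanin, 13 lay under the olfactory level in both cell types. Of the 14, 7 were called lower and 0 higher in MEL, where 43.2% of all genes were called lower and 20.5% higher. After each rescaling the lower calls numbered 4 and the higher ones 1 or 2. Pdpn, the gene of podoplanin, was the exception in level (5.42 in MEL, 5.91 in ES-EP), and its difference was -0.50 ± 0.08. Differences of Clec12b, Olr1 and Clec4e were -0.87, -0.57 and -0.56.

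Vwf encodes von Willebrand factor, which megakaryocytes store in alpha granules and endothelial cells in their own granules. Vwf (probe set 10541910) had signals of 5.85 and 5.89 in MEL, against 6.15 and 6.03 in ES-EP. These lay slightly above the olfactory level, and the arrays of the cell types were 0.13 apart at their nearest. The difference of -0.22 ± 0.08 passed narrowly (SE, n = 2 arrays per cell type, limma adjusted p = 0.0419). Relative to the median of all genes it was -0.06. Of the 1015 olfactory receptor genes, 476 had a lower difference and 539 a higher one. The Vwf difference ended as a call after each rescaling, at -0.10, -0.07 and -0.02 (limma adjusted p = 0.319, 0.503 and 0.847). The call also ended when ES-EP replicate A (adjusted p = 0.184), MEL replicate A (0.168) or MEL replicate B (0.112) was left out.

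Markers of endothelial cells were set beside it. Of 10, 4 lay above the olfactory level in MEL and 4 in ES-EP, and their mean signal was 5.52 and 5.48 in the MEL arrays and 5.52 and 5.51 in the ES-EP arrays. The members went both ways, with 1 called higher and 5 lower in MEL, where 20.5% of all genes were called higher and 43.2% lower. Tek, the angiopoietin receptor, was higher in MEL (6.84 in MEL, 4.97 in ES-EP, difference 1.87 ± 0.08, SE, limma adjusted p = 9.5e-09), the ES-EP mean at background. Of the 10, 5 were under the olfactory level in both cell types, among them Cdh5, Pecam1 and Kdr. Egfl7 (8.92 in MEL, 8.79 in ES-EP), Cldn5 (5.89 in MEL, 5.99 in ES-EP) and Nos3 (5.53 in MEL, 5.89 in ES-EP) were above it in both. On chromosome 6, the nearest measured neighbor of Vwf on one side is Cd9, a tetraspanin of the platelet surface, which averaged 8.53 in MEL and 4.53 in ES-EP (difference 4.0 ± 0.08, SE, limma adjusted p = 3.33e-11, the ES-EP mean under the olfactory level). The nearest on the other side, Ano2, averaged 4.73 in MEL and 5.13 in ES-EP, below that level in both.

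**Figure D3:**
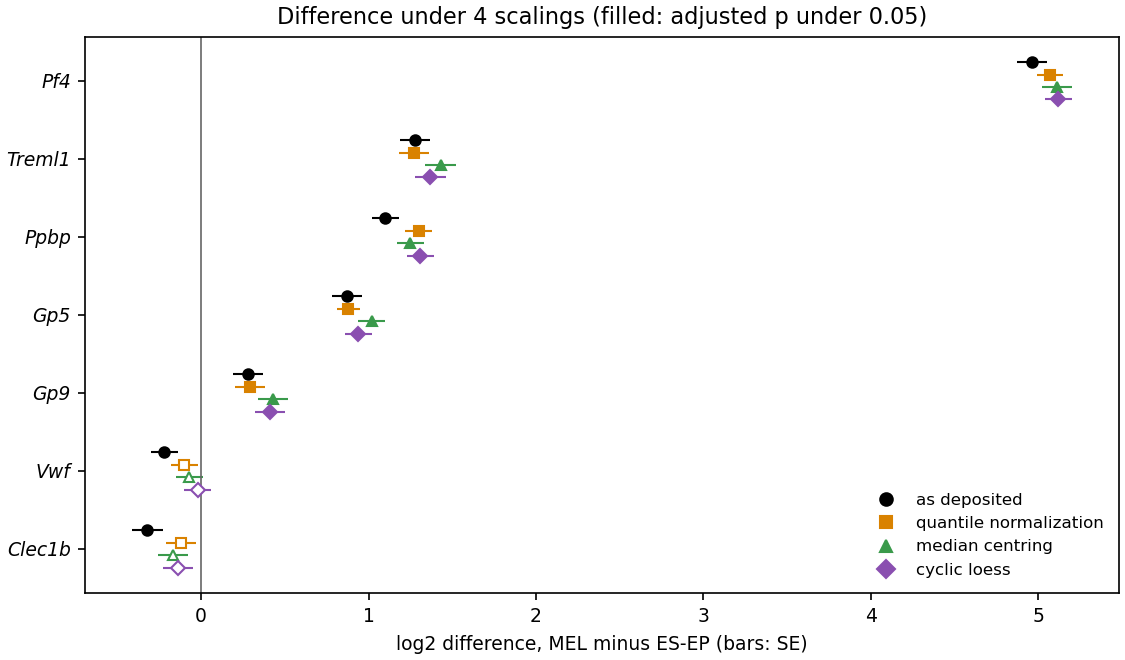
Log2 difference, MEL minus ES-EP (x axis), of the 7 genes in the deposited values and after 3 rescalings of the arrays, with bars for the SE and filled symbols where the adjusted p was under 0.05. Pf4 kept a difference near 5, and Treml1, Ppbp, Gp5 and Gp9 were called higher in MEL under each of the 4 scalings, while Vwf (-0.22) and Clec1b (-0.32) were called only in the deposited values.

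Other genes of platelets and megakaryocytes were then counted by role, to be read against the 20.5% of all genes that were called higher and the 43.2% called lower. Of 21 measured platelet surface receptors, integrins and adhesion genes, 10 were called higher and 8 lower in MEL (median -0.13), and the lower calls numbered 4 after each rescaling. Cd9 was 16-fold, the laminin receptor subunit Itga6 7.26-fold and the prostacyclin receptor Ptgir 6.55-fold higher in MEL, with the ES-EP mean of the first 2 under the olfactory level. The subunits of the fibrinogen receptor, which platelets carry as a pair, went in opposite directions. Itga2b had signals of 9.12 and 9.0 in MEL, against 6.75 and 6.77 in ES-EP, a difference of 2.30 ± 0.08 (limma adjusted p = 2.91e-09). Itgb3 had signals of 5.36 and 5.53 in MEL, against 7.23 and 7.27 in ES-EP, a difference of -1.80 ± 0.09 (limma adjusted p = 2.98e-08).

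Genes of platelet signaling and cytoskeleton were called higher in MEL in 12 of 19 cases and lower in 2 (median 0.33). Tbxas1, which makes thromboxane, was 15.3-fold, the Rap activator Rasgrp2 11.7-fold, the membrane-curving protein Bin2 9.29-fold and the phospholipase Plcg2 6.82-fold higher in MEL. Of these, only Bin2 had an ES-EP mean above the olfactory level. Tubb1, the beta tubulin of the platelet ring, was 1.48-fold lower in MEL (7.27 and 7.10 in MEL, against 7.61 and 7.90 in ES-EP). It is named outside the rule for named genes, after its values were seen, as 1 of the 2 lower calls, and the other, Gng11, lay under the olfactory level in both cell types.

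Other genes of granules and secretion were called about as often as all genes, of which 20.5% were called higher and 43.2% lower. Of 25, 5 were called higher and 9 lower in MEL (median -0.13), and the lower calls numbered 1 to 3 after rescaling. The monoamine transporter Slc18a2, which loads serotonin into dense granules, was 2.70-fold higher in MEL (against an ES-EP mean under the olfactory level), Tgfb1 2.55-fold and Pdgfb 1.85-fold higher. Rab38, a GTPase of lysosome-related organelles, was 2.47-fold lower in MEL. Beyond these 4, the called differences of the list were between -0.46 and 0.40.

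Among 21 measured transcription factors and cofactors of megakaryocytes, 9 were called higher and 7 lower in MEL (median 0.04). Fli1, an ETS factor that activates glycoprotein genes in megakaryocytes, had signals of 9.86 and 9.83 in MEL, against 5.02 and 5.16 in ES-EP. Like Pf4 it was at background in ES-EP, and its difference was 4.75 ± 0.08 (limma adjusted p = 1.89e-11). Meis1, a homeobox cofactor, was 21.1-fold higher in MEL, again against an ES-EP mean below that level, and the ETS repressor Etv6 2.22-fold. Gata1, which may be read together with its transgene in MEL, was 2.21-fold and its cofactor Zfpm1 (FOG1) 1.56-fold higher in MEL. Gata2, which acts before Gata1 in this lineage, went the other way, with 6.91 and 6.68 in MEL, against 8.94 and 8.96 in ES-EP (difference -2.16 ± 0.09). Runx1 and Nfe2 differed by 0.29 and 0.22 (limma adjusted p = 0.0146 and 0.0408).

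**Figure D4:**
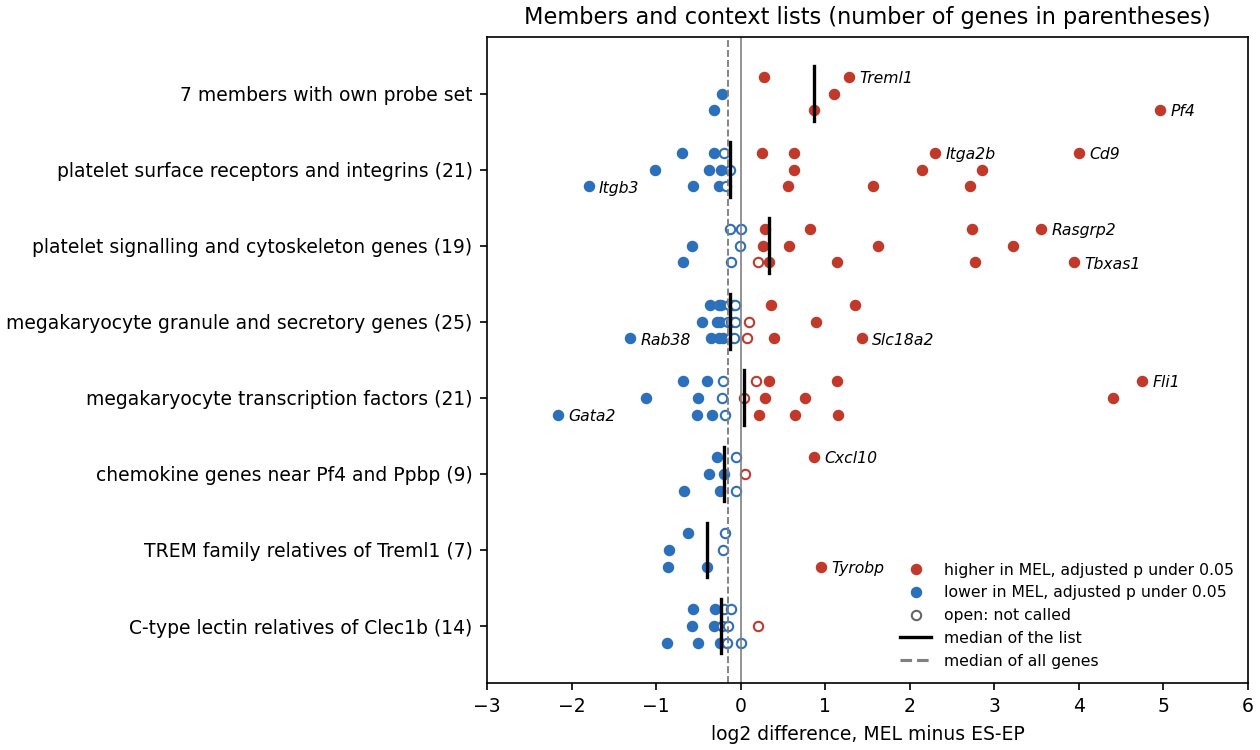
Log2 difference, MEL minus ES-EP (x axis), of each measured gene in the list of 7 and in 7 lists of related genes. Red and blue points were called higher and lower in MEL, open points were not called, black bars are list medians and the dashed line is the median of all genes (-0.15). The list of 7 has its median at 0.87 and Pf4 at 4.96, with Fli1 (4.75), Cd9 (4.0) and Tbxas1 (3.94) the farthest to the right in their lists and Gata2 (-2.16) the farthest to the left.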

How the data were processed

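RNA of 4 cultures, 2 MEL and 2 ES-EP, was hybridized to 4 Affymetrix arrays of the type Mouse Gene 1.0 ST. RMA normalization in GeneSpring GX was done by the authors, and the deposited values are log2 signals per probe set (35557 in all, from 2.27 to 14.44, with medians of 5.68 and 5.67 for the MEL arrays and 5.81 and 5.84 for the ES-EP arrays). Detection calls were not used here, and the number of arrays limits the precision.

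A probe set was named where the array's gene table gave 1 symbol (21789), and left out where it gave several (1621) or was unnamed here (12147). Where a gene had several, the brightest by its mean of the 4 arrays was used. The two-sided test of MEL minus ES-EP was limma's (version 3.58.1 in R 4.3.3, lmFit and eBayes without a block), with residual degrees of freedom of 2, prior ones of 8.20, and Benjamini-Hochberg adjustment over all 19938 genes. An exact permutation of 2 against 2 arrays cannot give a p below 0.333. The test was also run on simulated arrays with independent normal noise. Such arrays hold no shifts between arrays or cultures, so they cannot show how the test behaves under them.

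The members and the 12 gene lists were chosen with earlier results of these data known. Named genes were all members, up to 4 called genes with the largest difference per list, and Fli1, Gata1, Gata2, Runx1, Zfpm1, Nfe2, Itga2b and Itgb3, a gene not reported here, and neighbors by gene order in GRCm38.p6. Marker lists are given by counts with examples. Of 8 undifferentiated stem cell markers, the remaining list, 2 lay above the olfactory level in MEL and 2 in ES-EP. Of these markers, 5 were called lower in MEL and 0 higher (median -0.40), where 43.2% of all genes were called lower and 20.5% higher. Tables and plots were made in Python 3.11.15 (matplotlib 3.10.9, numpy 2.4.6, pandas 2.3.3).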

Additional observations from a re-analysis of the deposited data

How the results depend on the processing

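Pf4, Treml1, Ppbp and Gp5 kept their direction and their call under every alternative run for them, with differences of 4.89 to 5.12, 1.18 to 1.43, 1.03 to 1.31 and 0.80 to 1.02. Ppbp, Vwf and Clec1b lay below the median signal of all genes and gave no value under that filter. Gp9 was not called over every probe set (0.28, adjusted p = 0.0753) and was 0.17 to 0.38 without each replicate. Vwf was not called with quantile normalization (-0.10), median centring (-0.07), cyclic loess (-0.02), over every probe set (-0.22, adjusted p = 0.0920) or with a trended robust variance (-0.22, adjusted p = 0.0553), and was -0.28 to -0.15 without each replicate. Clec1b was not called with quantile normalization (-0.12), median centring (-0.17), cyclic loess (-0.14) or over every probe set (-0.32, adjusted p = 0.0559), and was -0.40 to -0.24 without each replicate. The causes of these changes were not tested. Of the 7 genes, those called lower thus numbered 0 with each rescaling, above the median signal and over every probe set, 1 with the trended variance, and 0 to 1 without each replicate. Over all genes, 8622 were called lower in MEL as deposited, 5644 with median centring, 5460 with cyclic loess and 3876 above the median signal, where fewer genes were tested.

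The letters A and B of the arrays are shared between the cell types, and the labels do not say what they stand for. The deviations of same-lettered arrays from their group means did not go together across genes (r = -0.04). With the letter as a replicate block, Vwf was no longer called (-0.22, adjusted p = 0.0546), so that 1 of the 7 genes was called lower, and no other call among the 7 ended. Weak signals limit what these arrays can show of Ppbp, Clec1b and Vwf.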

Other observations

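Several genes of proteins through which Gp6, Clec1b or both pass their signal were brighter in MEL. The 5 given here were picked from the signaling list after their values were seen, and no test of them as a group was made. In that list 12 of 19 genes were called higher and 2 lower in MEL, where 20.5% of all genes were called higher and 43.2% lower. Fcer1g, the chain that Gp6 needs to signal, had signals of 6.56 and 6.51 in MEL, against 4.83 and 5.01 in ES-EP (difference 1.62 ± 0.09, SE, limma adjusted p = 8.81e-08). The kinase Syk differed by 2.74 and the phospholipase Plcg2 by 2.77, and for each of these 3 genes the ES-EP mean lay below the olfactory level. The adaptors Lcp2 (SLP-76) and Lat were above it in both cell types and 2.20-fold and 1.77-fold higher in MEL. Fyn, a Src family kinase of the same list that acts early in Gp6 signaling, averaged 5.06 in MEL and 5.07 in ES-EP, under that level in both (limma adjusted p = 0.995). Clec1b itself lay below that level in every array, and Gp6 was not analysed here, so these values describe shared signaling genes and not the platelet receptors.

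Farther along from Vwf than Cd9, the tumor necrosis factor receptor gene Tnfrsf1a averaged 9.26 in MEL and 5.12 in ES-EP (difference 4.15, limma adjusted p = 3.44e-11, the ES-EP mean below the olfactory level). Between them Plekhg6 averaged 5.52 in MEL and 5.41 in ES-EP (limma adjusted p = 0.275). On the other side of Vwf, beyond Ano2, Gm10415 averaged 4.42 in MEL and 5.1 in ES-EP, and Kcna5 4.1 in MEL and 4.46 in ES-EP. Both were called lower in MEL (differences -0.68 and -0.36), with both means under the olfactory level.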
